A study of Mus musculus with 6 samples.

Results

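The genes described here act on steroid hormones inside the tissue that responds to them. They are *Star*, *Cyp11a1* and *Cyp19a1*, which serve steroid synthesis, *Hsd11b1* and *Hsd11b2*, which interconvert active and inactive glucocorticoid, the hydroxysteroid dehydrogenases *Hsd17b2*, *Hsd17b4* and *Hsd17b11*, and *Srd5a1* and *Akr1c18*, which reduce progesterone (P4) and related steroids. They were chosen by name, and all 10 were found among the 56748 genes of the deposited tables. RNA-seq had been performed on uteri taken at 1600 h on day 4 of pregnancy, shortly before embryo attachment, with 3 uteri labelled control and 3 labelled *Gp130* ecKO. All females were on a C57BL/6 background, which the methods of the study give as C57BL/6J. They were sexually mature and mated with fertile wildtype males, so every uterus could hold blastocysts. *Gp130* ecKO females were *Ltf* iCre/+ and *Gp130* flox/flox, so iCre was driven from the *Ltf* locus, which is active in the uterine epithelium. Control females are labelled wildtype, and the methods of the study allow either *Gp130* flox/flox without iCre or wildtype. Gp130 is the receptor subunit shared by leukemia inhibitory factor and related cytokines, and the comparison asks how its loss from the epithelium is accompanied by changes in the uterus.

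Steroid hormones reach the uterus from the ovary, and the tissue can change their strength locally. A reductase or dehydrogenase that converts a hormone to a weaker form lowers what its receptor sees, and one that works in the opposite direction raises it. The day 4 uterus depends on P4 with a short rise of estradiol (E2), and its cells also carry the glucocorticoid receptor. Star carries cholesterol into mitochondria and is a transport protein rather than an enzyme, and Cyp11a1 then cleaves the side chain of cholesterol to give pregnenolone. Cyp19a1, or aromatase, makes estrogens from androgens.

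The summed expected counts ranged from 13960748 in control 3 to 25906443 in control 2. Levels are given as CPM, the rounded expected count per 1000000 counts of a library size scaled by edgeR's TMM method. Values of a group are given in the order of uteri 1, 2 and 3. *Il6st*, the gene of Gp130, had 631, 678 and 452 CPM in the control uteri, against 388, 349.8 and 362 CPM in the *Gp130* ecKO uteri. Every *Gp130* ecKO uterus was thus below every control (log2 fold change −0.68 ± 0.21 SE, edgeR quasi-likelihood adjusted p = 0.120), in RNA that includes cells in which iCre is not active. On the first dimension of a multidimensional scaling, control 2 lay at 0.03, between controls 1 and 3 at 2.09 and 2.08 and the *Gp130* ecKO uteri at −1.47 to −1.32. Of 9 epithelial markers, 5 were higher in every *Gp130* ecKO uterus than in every control (15.7% of all tested genes were), and the summed level of the 9 was 2506 to 4222 CPM in the control and 5791 to 7633 CPM in *Gp130* ecKO. Of 8 stromal markers, 4 were lower without overlap, against 15.6% of all tested genes (summed 3576 to 4860.0 CPM in the control and 2146 to 3137 CPM in *Gp130* ecKO), as were 4 of 5 endothelial markers (342 to 820.1 CPM and 185 to 332 CPM). Of 5 macrophage markers 1, *Mrc1*, was lower without overlap (summed 107 to 149.8 CPM in the control and 62.4 to 118.6 CPM in *Gp130* ecKO), and all 6 smooth muscle markers overlapped (568 to 2781 CPM and 475 to 2994 CPM). Of 3 oviduct markers, *Foxj1* and *Rsph1* overlapped, whereas *Ovgp1*, the oviductal glycoprotein gene, had 47.9, 85.3 and 50.6 CPM in the control uteri, against 615, 1193 and 552 CPM in the *Gp130* ecKO uteri (log2 fold change 3.68 ± 0.40 SE, edgeR quasi-likelihood adjusted p = 0.0377). The oviduct markers thus summed to 49.6 to 87.1 CPM in the control and 557 to 1195 CPM in *Gp130* ecKO. None of these markers was at 0 in any uterus. In RNA of mixed uterine tissue, a change in the number of cells of a type and a change of RNA per cell cannot be told apart, and the part of either, or of oviduct tissue, in the values given here was not tested.

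Among the 10 genes, *Hsd17b11* and *Akr1c18* were higher and *Srd5a1* and *Star* were lower in every *Gp130* ecKO uterus than in every control. *Hsd11b1* had the highest log2 fold change, 2.80, with the largest standard error of the 8 tested genes (1.01), and *Hsd11b2*, *Hsd17b2* and *Hsd17b4* overlapped between the groups. *Cyp19a1* had no count in any uterus, and *Cyp11a1* had more than 12 counts in 1 control uterus only. After the filter on low counts, 8 of the 10 genes were tested among 16605. None of the 8 passed an FDR of 0.05 with more than 2-fold change in edgeR's quasi-likelihood test, which called 26 genes, or 0.157% of those tested. At an unadjusted p below 0.05 there were 5 of the 8 (*Hsd11b1*, *Hsd17b11*, *Akr1c18*, *Srd5a1* and *Star*), against 25.0% of all tested genes. The groups did not overlap in 4 of the 8, against 31.3% of all tested genes. Of those 4, 2 were higher (15.7% of all tested genes) and 2 lower (15.6%), and the median log2 fold change of the 8 genes was 0.13 beside −0.05 over all tested genes. edgeR's exact test called *Hsd17b11* and *Srd5a1*, and 7.54% of all tested genes. DESeq2 called those and also *Hsd11b1* and *Akr1c18*, and 9.69% of the 15916 genes to which it gave an adjusted p. The plot of CPM by uterus shows the 9 genes with counts.

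**Figure D1:**
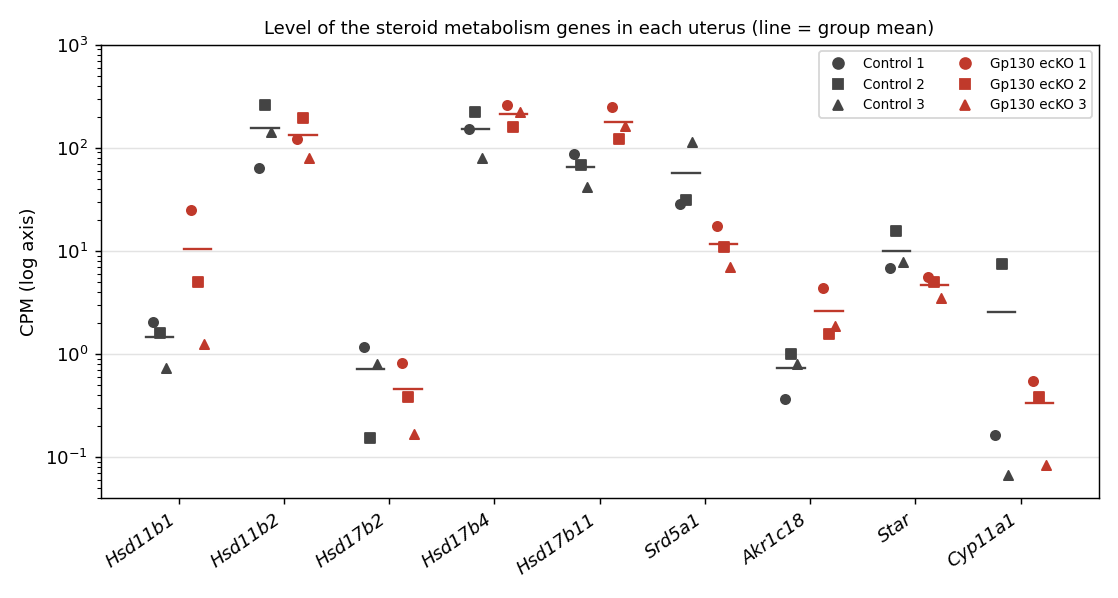
CPM on a log axis for the 9 genes with counts, with 1 point per uterus (dark for control, red for *Gp130* ecKO; the shape gives the uterus number) and a line at the group mean; *Cyp19a1* had no counts. The groups are apart in *Hsd17b11*, *Srd5a1*, *Akr1c18* and *Star*, and *Cyp11a1* reached 7.40 CPM in control 2 alone.

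Levels of different genes were compared by the deposited TPM, which is scaled for gene length. In the control the order was *Hsd11b2* (115 ± 73 TPM, SD, n = 3), *Hsd17b4* (76.4 ± 33.2), *Hsd17b11* (48.2 ± 14.1) and *Srd5a1* (36.3 ± 34.7), and the ranges of neighbours in this order overlapped. A gap followed, since the lowest *Srd5a1* value, 15.04 TPM, was above the highest of *Star*, 5.09 TPM. *Star* (3.56 ± 1.33 TPM), *Cyp11a1* (1.62 ± 2.64), *Hsd11b1* (1.55 ± 0.58), *Hsd17b2* (0.907 ± 0.583) and *Akr1c18* (0.887 ± 0.424) overlapped each with the next. In *Gp130* ecKO *Hsd17b11* came first by its mean (139 ± 50 TPM, SD, n = 3), above *Hsd17b4* (113 ± 24) in 3 of 3 uteri, although the ranges of neighbours overlapped. Its mean was also above that of *Hsd11b2* (106 ± 56 TPM). In *Gp130* ecKO 2, however, *Hsd11b2* was the higher, at 166.88 TPM beside 104.79 TPM. In the control *Hsd17b11* had been below *Hsd17b4* in 3 of 3 uteri. The gap now lay between *Hsd11b2*, with at least 55.8 TPM, and *Hsd11b1* (12.2 ± 14.6 TPM), which reached at most 28.8 TPM. *Srd5a1* followed with 7.21 ± 3.54 TPM, *Akr1c18* with 3.17 ± 1.89 TPM and *Star* with 1.75 ± 0.30 TPM. The lowest *Akr1c18* value, 2.05 TPM, was above the highest *Star* value, 1.93 TPM, so their order was the reverse of that in the control. *Hsd17b2* (0.790 ± 0.596 TPM) and *Cyp11a1* (0.30 ± 0.13 TPM) came last among the genes with counts.

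**Figure D2:**
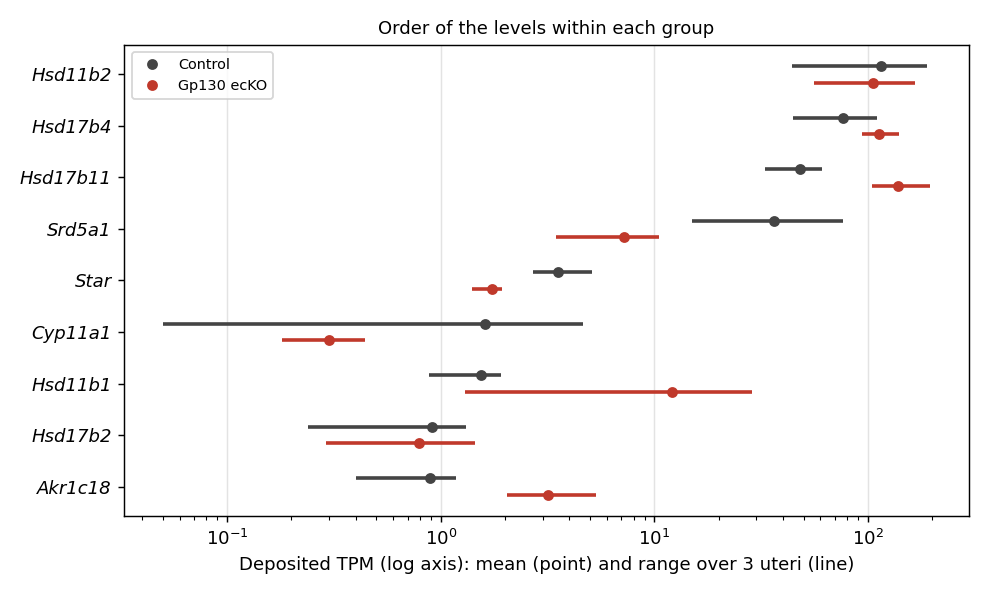
Deposited TPM on a log axis for the 9 genes with counts, in the order of the control means; points are group means and lines the range over 3 uteri of each group. *Hsd11b2*, *Hsd17b4* and *Hsd17b11* lie highest in both groups, and *Srd5a1* is close to them only in the control.

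*Hsd11b1* (ENSMUSG00000016194, chr1:192903918-192946489 of GRCm39, minus strand) encodes the reductase that makes active corticosterone from its inactive keto form. It had 2.02, 1.58 and 0.733 CPM in the control uteri, against 25.0, 5.0 and 1.24 CPM in the *Gp130* ecKO uteri. *Gp130* ecKO 1 was far above the others, whereas *Gp130* ecKO 3 was exceeded by controls 1 and 2. A log2 fold change of 2.80 ± 1.01 (SE) had an edgeR quasi-likelihood adjusted p of 0.154. It rested largely on *Gp130* ecKO 1, without which it was 1.08, and among 17 alternatives its adjusted p went from 0.0191 with DESeq2 to 0.473 without that uterus. The same uterus had the highest level of the gland proteases *Prss28* and *Prss29* (1876 and 6546 CPM, against at most 178 and 523 CPM in the other 5 uteri), while the gland marker *Foxa2* was at 25.0 CPM there and 10.8 to 43.4 CPM elsewhere. None of the 5 gland markers was apart between the groups or at 0, their sum was 108 to 1063 CPM in the control and 154 to 8684 CPM in *Gp130* ecKO, and their part in the *Hsd11b1* level was not tested. Fat also expresses *Hsd11b1*. The 5 adipocyte markers summed to 0.0405, 6.36 and 5.93 CPM in the control uteri, against 0.0452, 1.23 and 0 CPM in the *Gp130* ecKO uteri. *Lep* was at 0 in all uteri, and *Adipoq*, *Plin1* and *Cidec* were at 0 in *Gp130* ecKO 1.

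*Hsd11b2* (ENSMUSG00000031891, chr8:106245369-106250620, plus strand) encodes the opposing dehydrogenase, which inactivates corticosterone. Its level was 63.2, 258 and 143 CPM in the control uteri, against 121, 195 and 79.6 CPM in the *Gp130* ecKO uteri. The range of *Gp130* ecKO lay within that of the control. Its log2 fold change was −0.23 ± 0.51 (SE), with an edgeR quasi-likelihood adjusted p of 0.799, and it was 0.40 without control 2. The log2 ratio of *Hsd11b1* to *Hsd11b2* counts, which needs no scaling between libraries, was −4.95, −7.33 and −7.54 in the control uteri, against −2.27, −5.28 and −5.98 in the *Gp130* ecKO uteri. Counts of *Hsd11b2* exceeded those of *Hsd11b1* in all 6 uteri. The ratio was on average 2.10 higher in *Gp130* ecKO, but control 1 was above 2 of the *Gp130* ecKO uteri (exact two-sided permutation test, p = 0.3, where 3 against 3 cannot give less than 0.1), and the difference was 0.98 without *Gp130* ecKO 1. *H6pd*, whose product supplies the cofactor for the reductase, had 454, 78.4 and 105 CPM in the control uteri, against 158, 149.8 and 163 CPM in the *Gp130* ecKO uteri. Control 1 alone stood high, and the log2 fold change went from −0.44 to 0.81 when it was left out.

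*Hsd17b11* (ENSMUSG00000029311, chr5:104137628-104169902, minus strand) encodes a lipid droplet dehydrogenase that oxidises the 17-beta hydroxyl group of steroids. It had 86.4, 68.6 and 41.7 CPM in the control uteri, against 247, 122 and 163 CPM in the *Gp130* ecKO uteri. All *Gp130* ecKO uteri were above all controls, and the means were 65.6 ± 22.5 and 177 ± 64 CPM (SD, n = 3). The log2 fold change of 1.43 had the smallest standard error of the 8 genes, 0.34, with an edgeR quasi-likelihood p of 0.00359 before and 0.0876 after adjustment. With single uteri left out it lay between 1.12 and 1.70, and its adjusted p went from 0.00386 with DESeq2 to 0.251 without *Gp130* ecKO 1. Per 1000 CPM of the summed epithelial markers of the same uterus, *Hsd17b11* was at 21.8, 16.3 and 16.7 in the control uteri, against 32.3, 21.0 and 27.7 in the *Gp130* ecKO uteri. On that scale *Gp130* ecKO 2 was below control 1, and without overlap 1.99% of all tested genes were higher and 59.4% lower in *Gp130* ecKO. The scale depends on the markers summed, which ran from *Epcam* (log2 fold change −0.19) to *Krt19* (2.19). No stretch of 75 bases, the read length, in its transcripts occurs in another gene.

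*Hsd17b4* and *Hsd17b2* also encode dehydrogenases that turn E2 into estrone, in peroxisomes and in the endoplasmic reticulum. *Hsd17b4* (ENSMUSG00000024507, chr18:50261268-50330439, plus strand) had 153, 221 and 78.7 CPM in the control uteri, against 259, 160.5 and 220.2 CPM in the *Gp130* ecKO uteri. Control 2 was above all but 1 of the *Gp130* ecKO uteri, and the log2 fold change was 0.50 ± 0.37 (SE), with an edgeR quasi-likelihood adjusted p of 0.421. It was 0.19 without control 3 and 0.91 without control 2. *Hsd17b2* (ENSMUSG00000031844, chr8:118428254-118485774, plus strand) had between 4 and 29 counts per uterus, or 1.17, 0.154 and 0.800 CPM in the control uteri, against 0.814, 0.385 and 0.166 CPM in the *Gp130* ecKO uteri. The groups overlapped. Its log2 fold change of −0.63 had a standard error of 0.80, and it was 0.13 without control 1, so its direction depended on 1 uterus.

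*Srd5a1* (ENSMUSG00000021594, chr13:69721568-69759750, minus strand) encodes the 5-alpha reductase that reduces P4 and testosterone. It had 28.5, 31.1 and 112 CPM in the control uteri, against 17.2, 11.0 and 7.01 CPM in the *Gp130* ecKO uteri. All *Gp130* ecKO uteri were below all controls, and control 3 was more than 3-fold above the other controls. The log2 fold change was −2.29 ± 0.60 (SE), with an edgeR quasi-likelihood p of 0.00614 before and 0.0980 after adjustment. It was −1.35 without control 3, and its adjusted p went from 0.00265 with DESeq2 to 0.235 without *Gp130* ecKO 1. Per 1000 CPM of the summed epithelial markers the groups were further apart, with 7.20, 7.37 and 44.9 in the control and 2.26, 1.90 and 1.19 in *Gp130* ecKO, on a scale where 59.4% of all tested genes were lower without overlap. Per 1000 CPM of the summed stromal markers they overlapped, since *Gp130* ecKO 1 was at 8.03 and controls 1 and 2 at 7.70 and 6.40, and on that scale 1.55% of all tested genes were lower and 40.1% higher without overlap. Of the stretches of 75 bases in *Srd5a1*, 17.3% also occur on the same strand in the noncoding gene *Gm17108*, which had 1 to 20 counts per uterus. Another 13.4% occur on the opposite strand, where *Nsun2* lies (log2 fold change −0.38).

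*Akr1c18* (ENSMUSG00000021214, chr13:4182614-4200672, minus strand) encodes the 20-alpha hydroxysteroid dehydrogenase, which converts P4 to a form with little activity. It had 9, 26 and 12 counts in the control uteri, against 96, 41 and 45 counts in the *Gp130* ecKO uteri. As CPM these were 0.364, 1.00 and 0.800 in the control, and 4.34, 1.58 and 1.87 in *Gp130* ecKO. All *Gp130* ecKO uteri were above all controls at this low level. The log2 fold change was 1.84 ± 0.58 (SE), with an edgeR quasi-likelihood p of 0.0148 before and 0.124 after adjustment, and 1.26 without *Gp130* ecKO 1. Among 17 alternatives its adjusted p went from 0.0398 with DESeq2 to 0.331 without *Gp130* ecKO 1. Per 1000 CPM of the summed epithelial markers the groups overlapped, with *Gp130* ecKO 2 at 0.272 and control 3 at 0.319.

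*Srd5a1* and *Akr1c18* both act on P4, and the former was lower and the latter higher in every *Gp130* ecKO uterus. The log2 ratio of *Srd5a1* to *Akr1c18* counts was 6.21, 4.93 and 7.08 in the control uteri, against 1.98, 2.79 and 1.89 in the *Gp130* ecKO uteri. The highest *Gp130* ecKO ratio was more than 2 units below the lowest control ratio. The mean difference was −3.85 (exact two-sided permutation test, p = 0.1, the least possible for 3 against 3), and it was −3.35 without control 3. Since each gene alone separated the groups, in opposite directions, the ratios had to be apart and this p was fixed. It adds nothing to the values of the single genes. In every uterus *Srd5a1* still had more counts than *Akr1c18*.

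*Akr1c18* is one of 8 *Akr1c* genes of the lists that lie within 538 kb on chromosome 13, from 4099002 to 4636542. Their products are aldo-keto reductases that act on ketone and hydroxyl groups of steroids and other compounds. In their order along the chromosome they are *Akr1c14*, *Akr1c18*, *Akr1c13*, *Akr1c19*, *Akr1c12*, *Akr1c6*, *Akr1c20* and *Akr1c21*. The summed level of the 8 genes was 58.2, 85.8 and 32.7 CPM in the control uteri, against 194, 190.3 and 214 CPM in the *Gp130* ecKO uteri. Of the 5 tested, 4 neighbours (*Akr1c18*, *Akr1c13*, *Akr1c19* and *Akr1c12*) were higher in every *Gp130* ecKO uterus than in every control, where 15.7% of all tested genes were, and *Akr1c14*, at the edge, overlapped. *Akr1c6* had no counts and *Akr1c20* and *Akr1c21* at most 3 per uterus.

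*Akr1c13* had 5.66, 11.5 and 3.33 CPM in the control uteri, against 32.8, 73.2 and 35.5 CPM in the *Gp130* ecKO uteri. Its log2 fold change was 2.78 ± 0.52 (SE), with an edgeR quasi-likelihood adjusted p of 0.0648, and 3.40 without control 2, where it passed with an adjusted p of 0.0204. *Akr1c19* had 20.4, 45.2 and 16.1 CPM in the control uteri, against 132, 88.9 and 97.3 CPM in the *Gp130* ecKO uteri. It had the highest mean TPM of the cluster in *Gp130* ecKO, 89.4 ± 11.3 TPM (SD, n = 3) beside 66.9 ± 35.4 TPM for *Akr1c13*, whose highest uterus was above it, and its log2 fold change was 1.96 ± 0.40 (SE), with an edgeR quasi-likelihood adjusted p of 0.0718, or 2.57 without control 2 (adjusted p = 0.00974). *Akr1c12* had 0.566, 1.77 and 0.800 CPM in the control uteri, against 3.03, 6.96 and 4.06 CPM in the *Gp130* ecKO uteri (log2 fold change 2.13, edgeR quasi-likelihood adjusted p = 0.0941, and 0.0492 without control 2). Control 2 was the highest control for all 3 genes and for *Akr1c18*. *Akr1c14*, whose product is a 3-alpha hydroxysteroid dehydrogenase, had 31.2, 26.4 and 11.7 CPM in the control uteri, against 22.1, 19.5 and 75.3 CPM in the *Gp130* ecKO uteri. *Gp130* ecKO 3 alone was high, and without it the log2 fold change of *Akr1c14* went from 0.75 to −0.13. Relative to the summed epithelial markers, *Akr1c13* and *Akr1c19* remained apart between the groups, where 1.99% of all tested genes were higher, and *Akr1c12* overlapped. *Akr1c12* and *Akr1c13* share 14.9% and 14.3% of their stretches of 75 bases with each other, so RSEM could divide reads between them, and *Akr1c18* shares none with any gene.

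**Figure D3:**
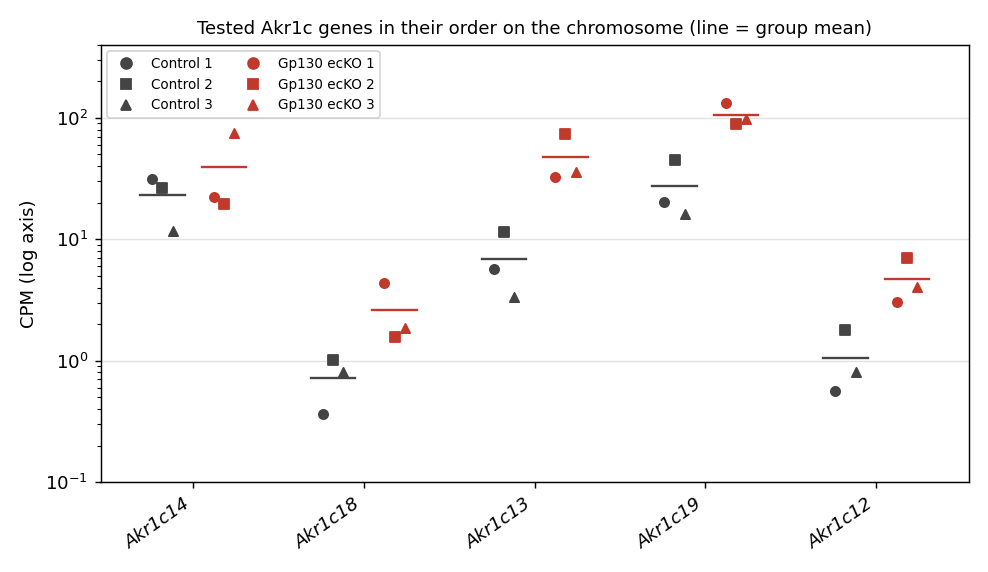
CPM on a log axis for the 5 tested *Akr1c* genes in their order on chromosome 13, with 1 point per uterus and a line at the group mean. The red *Gp130* ecKO points lie above all dark control points for *Akr1c18*, *Akr1c13*, *Akr1c19* and *Akr1c12*, and the groups overlap for *Akr1c14*.

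The sequences just upstream of 3 of these neighbours are shown because all 3 genes were higher without overlap in *Gp130* ecKO, and they let the likeness of their starts be seen. They are RefSeq promoter windows of the GRCm38.p6 table, found by exact match in GRCm39, each given 5′ to 3′ on the strand of its gene and cut before the first annotated exon. Capitals mark bases that differ between *Akr1c12* and *Akr1c13* or have no partner in their alignment. The genes were picked after their values were seen. *Akr1c18* (chr13:4200673-4200895, minus strand), *Akr1c13* (chr13:4240936-4241148, plus strand) and *Akr1c12* (chr13:4329433-4329648, minus strand) read:
Akr1c18: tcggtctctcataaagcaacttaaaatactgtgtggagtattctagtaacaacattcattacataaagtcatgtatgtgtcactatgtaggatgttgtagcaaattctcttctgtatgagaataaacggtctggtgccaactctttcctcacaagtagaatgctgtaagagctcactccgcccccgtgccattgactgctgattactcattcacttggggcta
Akr1c13: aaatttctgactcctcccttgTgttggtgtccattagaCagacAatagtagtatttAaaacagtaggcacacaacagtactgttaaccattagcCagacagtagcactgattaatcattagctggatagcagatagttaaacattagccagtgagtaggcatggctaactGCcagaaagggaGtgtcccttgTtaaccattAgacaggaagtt
Akr1c12: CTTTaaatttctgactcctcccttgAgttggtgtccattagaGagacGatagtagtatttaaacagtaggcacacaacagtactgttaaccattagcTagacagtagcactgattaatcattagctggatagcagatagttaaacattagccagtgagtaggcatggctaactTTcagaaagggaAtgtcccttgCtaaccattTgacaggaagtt
The stretches of *Akr1c12* and *Akr1c13* had 203 identical and 9 mismatched aligned bases and 5 gap bases. Over the whole windows of 300 bases, 93.4% of alignment columns were identical for this pair, and 50.7% to 59.8% for the pairs with *Akr1c18* or *Akr1c19*. Promoter entries were found for 6 of the 10 genes (*Akr1c18*, *Srd5a1*, *Hsd17b11*, *Hsd11b1*, *Cyp11a1* and *Cyp19a1*), and those of *Hsd11b2*, *Hsd17b2*, *Hsd17b4* and *Star* were not in the table used here. In these windows, both strands were searched for TTCNNNGAA (STAT), TGACNNNGC (antioxidant response), GGTCA (a single arm of the estrogen response element) and AGAACA (a single arm of the progesterone and glucocorticoid response element). Over all 32851 windows of that length, the shares with a match were 8.3%, 12.4%, 40.5% and 19.0% in that order. *Akr1c18* held GGTCA at 28 bases past its start, *Hsd11b1* held TGACNNNGC, *Cyp11a1* held GGTCA, and *Cyp19a1* held TTCNNNGAA and GGTCA. All 300 bases of the *Hsd11b1* window, and of the *Cyp11a1* window with the match, lay in annotated exons of the same gene. *Cyp11a1* and *Cyp19a1* had multiple windows each, so the shares per window do not apply directly to these genes. *Akr1c19* held TTCNNNGAA, TGACNNNGC and GGTCA. Its TTCNNNGAA and TGACNNNGC matches touched annotated exons, and 196 of the 300 bases of its window lay in exons of *Akr1c19* or *Gm61344*. That window (chr13:4283489-4283788) lay inside the annotated gene, which starts at 4278699. *Srd5a1*, *Hsd17b11*, *Akr1c12* and *Akr1c13* held none of these letters in this window.

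*Star* (ENSMUSG00000031574, chr8:26296583-26306010, plus strand) had 6.88, 15.6 and 7.73 CPM in the control uteri, against 5.52, 5.04 and 3.52 CPM in the *Gp130* ecKO uteri. All *Gp130* ecKO uteri were below all controls, by a small margin beside control 1, and control 2 was about 2-fold above the other controls. The log2 fold change was −1.11 ± 0.40 (SE), with an edgeR quasi-likelihood p of 0.0255 before and 0.151 after adjustment, and −0.60 without control 2, and the adjusted p ranged from 0.0664 to 0.319 over 17 alternatives. Per 1000 CPM of the summed stromal markers the groups overlapped, with *Gp130* ecKO 1 at 2.57 and control 1 at 1.86, and per 1000 CPM of the epithelial markers they did not, as in the 59.4% of all tested genes that were lower there. Of its stretches of 75 bases, 53.1% occur on the opposite strand of other transcripts, where *Ash2l* lies (69.0 to 82.6 CPM in the control, 67.7 to 78.6 CPM in *Gp130* ecKO, log2 fold change −0.07). The libraries were strand-specific, and the strand setting used in counting was not given in the sources used here.

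*Cyp11a1* (ENSMUSG00000032323, chr9:57913694-57935933, plus strand) did not pass the filter on low counts. It had 4, 192 and 1 counts in the control uteri, against 12, 10 and 2 counts in the *Gp130* ecKO uteri. Control 2 stood alone at 7.40 CPM, and the other 5 uteri lay between 0.0667 and 0.543 CPM. *Hsd3b1*, which encodes an enzyme that converts pregnenolone to P4, had the same outlying uterus, with 0, 125 and 1 counts in the control uteri, against 15, 4 and 0 counts in the *Gp130* ecKO uteri. *Star* was also highest in control 2, as the plot of the first synthesis steps shows. Of the ovary markers, *Lhcgr* had 1, 19 and 1 counts in the control uteri, and at most 3 in *Gp130* ecKO. *Inha* had 3, 15 and 29 counts in the control uteri, against 6, 4 and 1 in the *Gp130* ecKO uteri. *Gdf9* had 13, 20 and 10 counts in the control, against 7, 20 and 6 in *Gp130* ecKO. *Amh* had 2, 1 and 7 counts in the control, against 0, 1 and 2 in *Gp130* ecKO. *Fshr* was at 0 in all uteri, *Zp3* at 0 in control 2 and *Nr5a1* at 2 counts there. The summed ovary markers were 0.809 to 3.27 CPM in the control, with control 2 at 2.20, and 0.497 to 1.04 CPM in *Gp130* ecKO. Of 4 embryo markers, *Elf5* had 25, 274 and 35 counts in the control uteri, against 88, 77 and 119 in the *Gp130* ecKO uteri. In control 2 *Cdx2* and *Pou5f1* were at 0 and *Nanog* at 1 count. The embryo markers summed to 1.05, 10.6 and 2.47 CPM in the control uteri, against 4.39, 2.96 and 5.14 CPM in the *Gp130* ecKO uteri. The part of ovarian, embryonic or other tissue in these values was not tested. *Cyp19a1* (ENSMUSG00000032274, chr9:54072601-54175394, minus strand) had 0 counts in all 6, which allows up to 3 counts, or 0.115 to 0.200 CPM per uterus, for counting error only, and *Cyp17a1*, which precedes it on the way to estrogens, had at most 2.

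**Figure D4:**
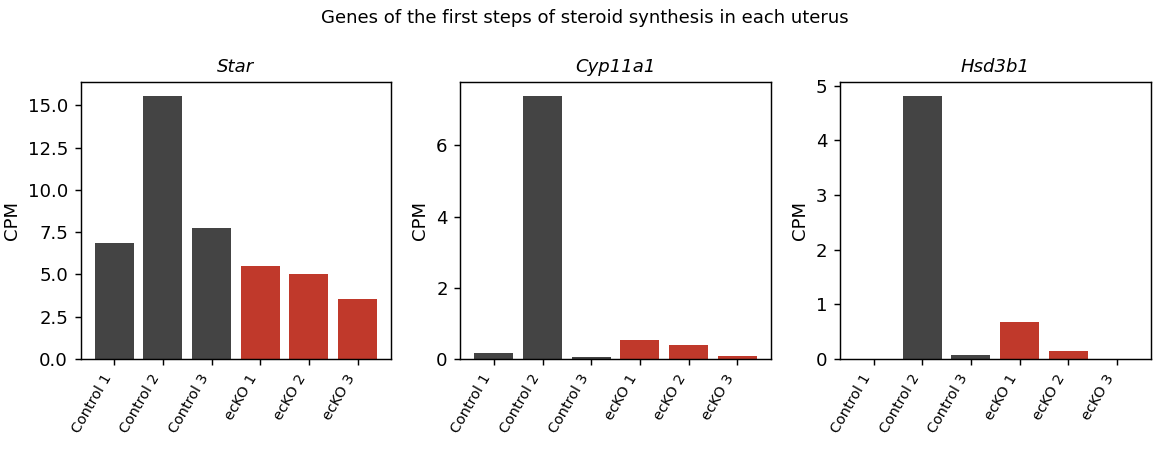
CPM of *Star*, *Cyp11a1* and *Hsd3b1* in each uterus, as bars from 0 on an axis of its own for each gene (dark for control, red for *Gp130* ecKO). Control 2 holds the highest bar in all 3 plots, and for *Cyp11a1* and *Hsd3b1* the other 5 uteri are near 0.

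A further 42 genes of steroid metabolism were listed, of which 41 were in the tables and *Sts* was not matched. Of these 41, 23 were tested, 5 had no counts in any uterus and 13 had counts below the filter. edgeR's quasi-likelihood test called none of the 23, and 9 had an unadjusted p below 0.05, of which 7 were higher and 2 lower in *Gp130* ecKO, where 12.1% and 12.9% of all tested genes were. The groups did not overlap in 11 of the 23, against 31.3% of all tested genes. Of the 11, 7 were higher (15.7% of all tested genes) and 4 lower (15.6%), and the median log2 fold change of the 23 was 0.11. Among the 4 lower were *Cyp21a1* (log2 fold change −2.03 ± 0.77 SE, edgeR quasi-likelihood adjusted p = 0.163) and *Cyp7b1* (−0.82 ± 0.31 SE, adjusted p = 0.162 in the same test). With single uteri left out, the log2 fold change of *Cyp21a1* lay between −2.50 and −1.48. edgeR's exact test and DESeq2 each called 5, all higher (3.75% and 4.61% of tested genes were called higher), and these were *Akr1c12*, *Akr1c13*, *Akr1c19*, *Akr1d1* and *Dhrs9*. In edgeR's quasi-likelihood test 3 of them (*Akr1c12*, *Akr1c13* and *Akr1c19*) passed when control 2 was left out, all higher, where 5.23% of 17142 tested genes passed and 3.41% were higher.

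Among these, *Akr1d1* encodes the 5-beta reductase, which reduces the same bond as Srd5a1 to the other stereoisomer. It had 2.18, 2.16 and 1.40 CPM in the control uteri, against 5.74, 4.54 and 20.8 CPM in the *Gp130* ecKO uteri. It was higher in all *Gp130* ecKO uteri, and most in *Gp130* ecKO 3 (log2 fold change 2.41 ± 0.64 SE, edgeR quasi-likelihood adjusted p = 0.0981, and 1.43 without that uterus). The other reductases differed from this, since *Srd5a3* had a log2 fold change of −0.17 with overlapping groups and *Srd5a2* had counts in *Gp130* ecKO 3 only, where there were 29. *Dhrs9*, whose product oxidises 3-alpha hydroxysteroids and retinol, had 3.11, 1.43 and 1.33 CPM in the control uteri, against 14.1, 4.54 and 17.5 CPM in the *Gp130* ecKO uteri (log2 fold change 2.60 ± 0.59 SE, edgeR quasi-likelihood adjusted p = 0.0821). The groups did not overlap in CPM, but per 1000 CPM of the summed epithelial markers *Gp130* ecKO 2, at 0.784, was just below control 1, at 0.786.

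The other dehydrogenases named Hsd17b overlapped between the groups in all 4 tested (*Hsd17b7*, *Hsd17b8*, *Hsd17b10* and *Hsd17b12*), with log2 fold changes of −0.49 to 0.19, whereas *Hsd17b1*, the enzyme that makes E2 from estrone, had at most 9 counts per uterus. Among the highest of the listed genes by TPM were *Cyb5a*, *Tspo*, *Por* and *Hsd17b10*. *Cyb5a*, which passes electrons to steroid-converting P450 enzymes, was at 216 ± 22 TPM in the control and 268 ± 18 TPM in *Gp130* ecKO (SD, n = 3; log2 fold change 0.23). *Tspo*, a cholesterol-binding protein of the outer mitochondrial membrane, was at 208 ± 87 and 191 ± 42 TPM (log2 fold change −0.13), and *Hsd17b10* at 107 ± 22 and 121 ± 10 TPM (log2 fold change 0.11). *Por*, the electron donor of the microsomal P450 enzymes, was higher in every *Gp130* ecKO uterus, at 138, 148 and 71.9 CPM in the control uteri, against 284, 227 and 178 CPM in the *Gp130* ecKO uteri (log2 fold change 0.95, edgeR quasi-likelihood adjusted p = 0.127). The plot of fold changes sets these beside the 8 tested genes.

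**Figure D5:**
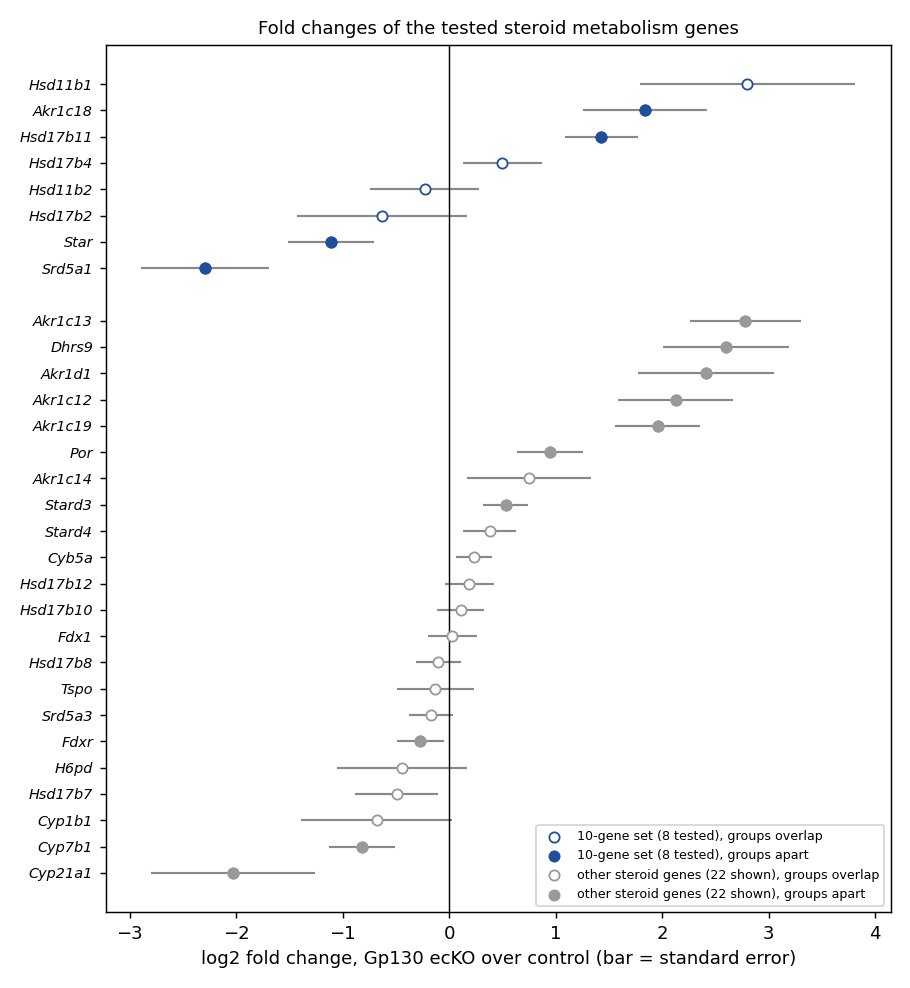
log2 fold change of *Gp130* ecKO over control with its standard error, for the 8 tested genes of the set (blue, top). Grey marks 22 of the 23 other tested steroid genes. Filled points mark genes whose groups do not overlap. *Srd5a1* lies lowest at −2.29, and *Hsd11b1* has the widest bar of the 8 blue genes.

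For the 4 genes whose groups did not overlap, the tested genes with the most similar pattern were found by the root mean square difference of log2 CPM, centred on the mean of the 6 uteri. *Itgb5*, *Zfp467* and *Myh14* were nearest to *Hsd17b11*, with differences of 0.18 to 0.20. *Gm5884*, *Ivns1abp* and *Cd59b* were nearest to *Akr1c18*, at 0.12 to 0.17. *Sapcd1*, *Adissp* and *Calca* were nearest to *Star*, at 0.20 to 0.23. *Dusp4*, *Gm9847* and *Col27a1* were nearest to *Srd5a1*, at 0.26 to 0.36, and *Gm9847* was at 0 CPM in *Gp130* ecKO 2 and 3. These differences depend on a gene's level and size of change, so they cannot be compared between the 4 genes. *Dusp4* shared the high value of *Srd5a1* in control 3, with 2.31, 2.85 and 16.1 CPM in the control uteri, against 1.27, 0.769 and 0.622 CPM in the *Gp130* ecKO uteri.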

How the data were processed

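The authors trimmed single reads of 75 bases from strand-specific poly(A) libraries with fastp 0.23.2, removed ribosomal reads, mapped the rest to GRCm39 with STAR 2.7.10a and estimated expected counts per gene with RSEM 1.3.3, which shares ambiguous reads among genes. The deposited table of each uterus gives the expected count, which is not normalized, and TPM, which the authors scaled for gene length and depth. TPM was used to compare levels between genes, given for both groups, and in an alternative for the ratios. The annotation version and the strand setting of the counting were not given in the sources used here.

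Rounded expected counts were analysed with edgeR 4.0.16 under R 4.3.3 (filterByExpr, TMM, and the quasi-likelihood test without the legacy setting), with Benjamini-Hochberg adjustment over 16605 genes. The study used edgeR 3.38.4 and does not name the test. A gene was called at an FDR under 0.05 with more than 2-fold change. At these same thresholds the study reported many more genes than the quasi-likelihood test called here. The standard error is |log2 fold change| over the root of the F statistic. CPM uses the TMM-scaled library size. Ratios within a uterus use counts + 0.5 and an exact permutation test. Symbols and coordinates came from GENCODE M39, which holds 56017 of the 56748 identifiers. The alternatives were the legacy setting, edgeR's exact and likelihood ratio tests, DESeq2 1.42.0, other normalizations, filters and pseudocounts, unrounded counts, no fold limit, a block for the replicate number, and leaving out single uteri. Levels per 1000 CPM of summed markers were added after the data were seen. The fit was tested on simulated data.

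The 10 genes and the gene lists were chosen with earlier results of these data known. The genes named are these 10, the listed steroid genes called by any of 3 tests (quasi-likelihood, exact or DESeq2) or among the 5 highest by TPM, and the 3 genes nearest in pattern, although 1 listed gene is not reported here; *H6pd*, *Akr1c14*, *Hsd3b1*, *Srd5a2*, *Srd5a3* and other listed genes and markers were named after their values were seen. Nothing in the sources used here says whether the 3 uterine samples of a group came from separate females, so p-values measure the spread between these samples. Total counts were 13960748 to 25906443 per uterus.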

Additional observations from a re-analysis of the deposited data

How the results depend on the processing

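The number of called genes depended on the test and on single uteri, and none of the 10 steroid genes was called in any edgeR quasi-likelihood fit run. In place of the 26 genes of edgeR's quasi-likelihood test, the legacy setting called 7, the exact test 1252, the likelihood ratio test 1317, DESeq2 1542, the fit without a filter 105 and the replicate block 6. With 1 uterus left out the count was 1 to 897, with 897 without control 2 and 6 or fewer without any other uterus. Of the 10 genes, the exact test called 2, the likelihood ratio test 3 (*Hsd11b1*, *Hsd17b11* and *Srd5a1*) and DESeq2 4, and of the other steroid genes each of these tests called 5. With 1 uterus left out the number of other steroid genes called was 0 to 3. Residuals of uteri with the same number correlated at 0.10, 0.07 and −0.20, within the range of −0.31 to 0.22 for uteri with different numbers. No pairing by number was thus seen, but 3 uteri per group cannot exclude one. The replicate block called 0 of the 10 genes. With 1 uterus left out the log2 fold change of *Hsd11b2* was −0.62 to 0.40, turning to 0.40 without control 2 and to 0.06 without *Gp130* ecKO 3, and that of *Hsd17b2* was −1.30 to 0.13, turning without control 1. All others of the 8 genes kept their direction in every alternative model fit, but per 1000 CPM of summed epithelial markers *Hsd17b4* was on average lower in *Gp130* ecKO (34.0, 27.7 and 37.3) than in the control (38.7, 52.4 and 31.4), and per 1000 CPM of summed stromal markers *Hsd11b2* and *Hsd17b2* were on average higher. The groups of 4 of the 8 did not overlap under every normalization and filter, 4 or 5 with 1 uterus left out (36.2% to 45.6% of tested genes), 2 per 1000 CPM of summed epithelial markers (*Srd5a1* and *Star*, both lower, as were 59.4% of tested genes) and 3 per 1000 CPM of summed stromal markers (*Hsd17b4*, *Hsd17b11* and *Akr1c18*, all higher, as were 40.1% of tested genes), the last 2 settings chosen after seeing the data. The ratio of *Srd5a1* to *Akr1c18* differed by −4.42 to −3.35 and that of *Hsd11b1* to *Hsd11b2* by 0.98 (without *Gp130* ecKO 1) to 2.93 with 1 uterus left out. With same-numbered uteri taken as pairs the exact p was 0.25 for both ratios, the smallest that 3 pairs allow. For *Srd5a1* to *Akr1c18* this was fixed by the separation of the groups in each gene alone. Depth limits the precision of genes with few counts, such as *Hsd17b2* with 4 to 29 and *Akr1c18* with 9 to 96 counts per uterus.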
